A study of Mus musculus with 2 samples.

Results

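CD301bint cDC2s are type 2 conventional dendritic cells (cDC2s) of the mouse skin-draining lymph node that bound an intermediate amount of antibody to CD301b. The authors gave each cell a class from its surface antibodies, and all cells with expression values and the class CD301bint cDC2 were taken. These were 659 of the 3471 naive cells and 1827 of the 7596 papain cells, in all 2486 of 11067. The question asked of each gene was whether its mRNA lay between the levels of the CD301b- cDC2s and the CD301b+ cDC2s of the same library, or outside both.

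The data came from CITEseq, which reads the mRNA of single cells together with DNA barcodes on antibodies bound to the cell surface. Both libraries were made from B6 mice without any transgene, as live MHCIIhi CD11c+ B220- sorted cells. The immunized library came from popliteal lymph nodes taken 1 day after OVA plus papain, a protease allergen, was injected into both rear footpads, and the naive library from unimmunized mice. The labels name popliteal nodes for both, whereas the methods name pooled skin-draining nodes for the naive mice, so lymph node site and immunization cannot be told apart in any difference between the libraries. The numbers of mice pooled are not given in the sources used here. With 1 library per condition and no replicate, no test was possible between conditions or classes. All 95% intervals cover counting error only.

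cDC2s take up antigen in the skin, migrate through the lymphatics under control of the chemokine receptor CCR7 and present peptides on MHC class II to CD4+ T cells. CD301b, also called MGL2, is a C-type lectin that binds galactose-type sugars and marks a large share of the dermal cDC2s, which are known for driving T helper type 2 responses to allergens. CD172a, the product of *Sirpa*, is the surface protein by which cDC2s are usually told from XCR1+ cDC1s. CD40 is the receptor through which CD4+ T cells signal back to the dendritic cell.

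Every antibody was read through a barcode of 15 bases, and the barcode that set the members of the class apart is shown here beside that of CD172a, the cDC2 marker. The barcode listed for CD11b was identical to the one listed for CD24, and neither was used as a marker. All are written 5′ to 3′.
CD301b: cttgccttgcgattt
CD172a (SIRPa): gattcccttgtagca
CD11b and CD24: tatatctttgccgca

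The CD301b antibody value, a natural logarithm, chose the members and is given as a description. The antibody medians of the classes, here and below, cover all cells of a class with antibody values. For CD301bint cDC2s these were 887 naive and 1976 papain cells, which include cells without expression values. Its median was 1.18 in naive CD301bint cDC2s, against 0.295 in CD301b- and 2.13 in CD301b+ cDC2s. In the papain library the medians were 1.22, 0.319 and 2.28 in the same order. The median of the class thus lay at 0.48 and 0.46 of the way from the CD301b- to the CD301b+ median. At the lower border, the highest naive CD301b- cell was at 0.7322 and the lowest CD301bint cell at 0.7354. The upper border lay between a CD301bint cell at 1.642 and a CD301b+ cell at 1.646. The papain borders were at similar values, 0.7345 for the highest CD301b- cell and 1.643 against 1.646 at the top, except that 1 of the 1827 CD301bint cells lay below the lower border, at 0.3252. The class was thus a band cut from a continuous range of antibody values.

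CD301bint cells made up 32.6% of the naive cDC2s (95% Clopper-Pearson interval 30.5 to 34.6) and 29.5% of the papain cDC2s (28.4 to 30.7). Naive cells of the class had a median depth of 14316 UMIs (range 3637 to 50395) and papain cells one of 15083 (2937 to 54753), between the 12751 and 11351 of CD301b- and the 15167 and 16181 of CD301b+ cDC2s. No cell barcode of the class occurred in both libraries, and 2 did among all cells. Of the class, 31 naive cells (4.70%) and 70 papain cells (3.83%) held a *Cd3e* or *Trac* UMI of T cells. The paper identified cDC1s and cDC2s by their XCR1 and CD172a antibody values. These values are therefore given as a description and are no separate evidence for the cell type. The CD172a median was 1.60 in naive and 1.89 in papain CD301bint cells, against 0.125 and 0.189 in cDC1s, and the XCR1 median was 0.138 and 0.0806, against 1.15 and 1.09 in cDC1s.

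*Sirpa* mRNA was higher in the class than in the other dendritic cell types. It was at 92.3 counts per 1000000 UMIs (CPM, summed over the cells of a class; Poisson interval 86.5 to 98.4) in naive and 62.1 CPM (59.3 to 65.0) in papain CD301bint cells. In cDC1s it was at 10.7 and 8.79 CPM, and in Langerhans cells, the epidermal dendritic cells, at 22.8 and 35.9 CPM. *Cd40* mRNA was at 361 CPM in the naive class, between the 206 of CD301b- and the 529 of CD301b+ cells, and at 702 CPM in the papain class, between 430 and 844. The log2 ratio of CD301bint to CD301b- cells was 0.81 (0.73 to 0.89) and 0.71 (0.67 to 0.75) for *Cd40*. That of *Sirpa* was 0.16 (0.02 to 0.30) and 0.24 (0.13 to 0.36). With the CD301b- cells reweighted to the mRNA clusters of the class, the *Cd40* ratio was 0.23 in naive and 0.25 in papain cells, and the *Sirpa* ratio 0.31 and -0.12, so which gene had the larger step in naive cells depended on the cluster makeup.

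*Mgl2*, the gene of CD301b itself, did not follow the protein. In the naive library it was at 15.2 CPM in CD301b-, 59.1 (54.5 to 64.0) in CD301bint and 56.1 (51.9 to 60.7) in CD301b+ cells, so the upper pair did not differ beyond counting error (log2 ratio 0.07, -0.09 to 0.24). The UMIs came from 60 cells, 9.10% of the class, and 57.3% of them from 10 cells. In cDC1s, which should lack CD301b, 2.25% of cells held an *Mgl2* UMI at a median depth of 15806 UMIs. Thinned to 8392 UMIs per cell, which 597 of the 659 cells reached, the shares were 7.82% in the class and 1.43% in cDC1s. In the papain library *Mgl2* was close to absent in all 3 cDC2 classes, at 0.831, 0.476 and 1.21 CPM, with 14 UMIs in 12 of the 1827 CD301bint cells (0.657%). Langerhans cells of that library held an *Mgl2* UMI in 0.227% of cells at a median depth of 18290 UMIs. In papain cells the antibody thus marked a class in which the mRNA of its own target was hardly read.

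**Figure D1:**
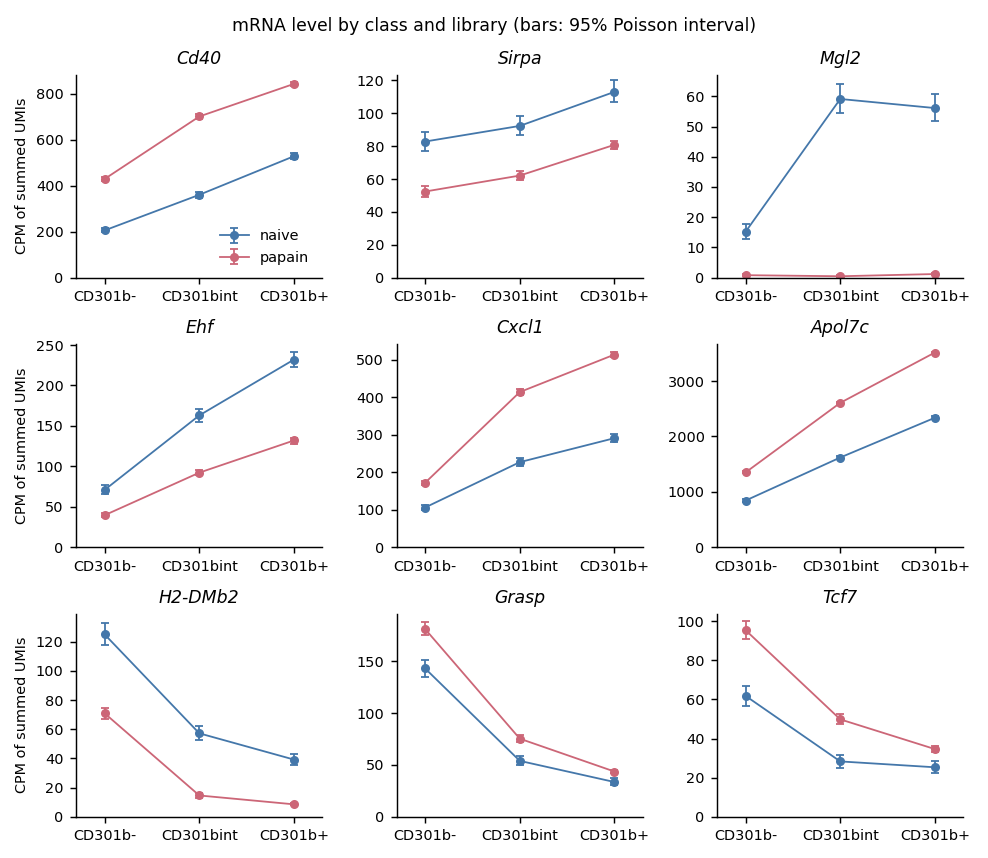
The panels show the mRNA level of 9 genes (vertical axis, CPM of summed UMIs, starting at 0) in CD301b-, CD301bint and CD301b+ cDC2s of the naive (blue) and papain (red) library, with 95% Poisson intervals as bars. *Cd40* rises in order from 206 to 529 CPM in naive cells and the class lies between its neighbours for the genes shown, except for naive *Mgl2*, where the class is at the CD301b+ level, and papain *Mgl2*, which is near 0 throughout.

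For nearly all genes that separated the outer classes, CD301bint cDC2s lay between them and closer to CD301b+ cells. Genes with at least 50 CPM in the highest of the 3 classes were compared, 2695 naive and 2731 papain genes. A gene counted as separating the outer classes with a ratio of at least 1.5-fold and an interval that left out 1. In the naive library 201 genes (7.46%) were higher and 135 (5.01%) lower in CD301b+ than in CD301b- cDC2s, and in the papain library 129 (4.72%) and 76 (2.78%). Of these 336 naive genes, 324 (96.4%) had a CD301bint level between the outer classes, and of the 205 papain genes 197 (96.1%). The place of a gene was taken as the share of the log2 distance from CD301b- to CD301b+ that the class had covered. Its median was 0.66 (quartiles 0.55 and 0.75) in the naive and 0.70 (0.61 and 0.79) in the papain library, and 285 naive genes (84.8%) and 189 papain genes (92.2%) were past the midpoint. The number of separating genes depended on the mRNA clusters that each class held. When CD301b- and CD301b+ cells were reweighted to the cluster makeup of the class, 113 naive and 67 papain genes separated them, with median places of 0.64 and 0.58, and without the 64 class cells and the other cells of naive cluster 1.5, described further on, 215 naive genes did, with a median of 0.62.

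Between the libraries, 112 genes separated the outer classes in both, 76 upwards and 36 downwards, and 0 in opposite directions. They were 33.3% of the naive and 54.6% of the papain genes. Of them, 105 were between in both libraries and 90 past the midpoint in both, with median places of 0.65 and 0.69. To separate the choice of genes from the measurement, the place was also taken over the genes chosen in the other library. The medians were then 0.65 over 175 genes in the naive and 0.67 over 259 genes in the papain library, with 86.3% and 89.2% of the genes between. Places between and beyond were counted on the point values, without intervals. In naive cells, 10 genes lay beyond the CD301b+ level, among them *Mgl2* and *Ccl9*, at places of only 1.04 and 1.03. Another 2, *Lyz1* and *Mucl1*, lay beyond the CD301b- level. In papain cells 7 lay beyond CD301b+, among them *Ccl9* and *Clec7a*, and *Dnase1l3* lay beyond CD301b-.

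**Figure D2:**
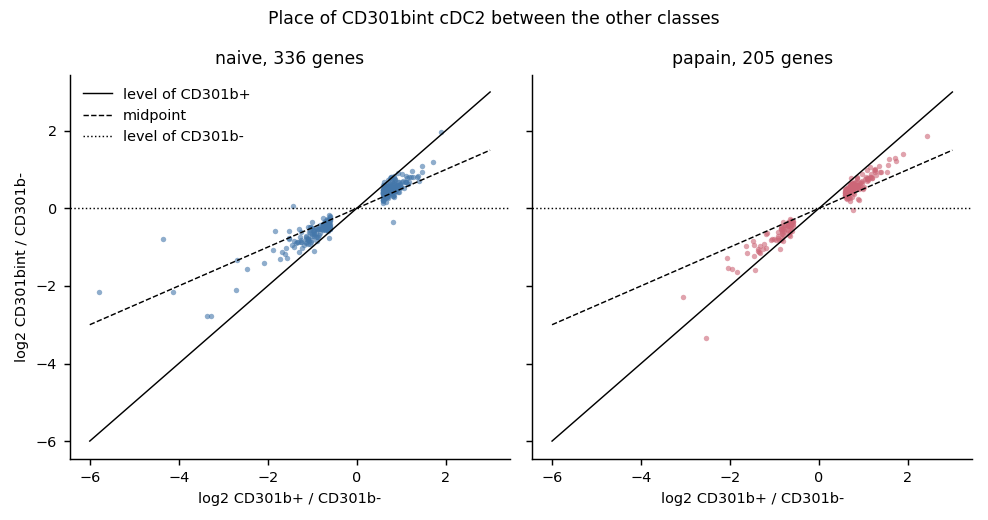
Each point is a gene that separated CD301b+ from CD301b- cDC2s (336 in the naive panel, 205 in the papain panel), with its log2 ratio of CD301b+ to CD301b- on the horizontal and of CD301bint to CD301b- on the vertical axis. The solid line is the CD301b+ level, the dashed line the midpoint and the dotted line the CD301b- level, and most points lie between the dashed and the solid line, as the median places of 0.66 and 0.70 state.

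Against each neighbour alone, the class stood further from CD301b- than from CD301b+ cells. At a threshold of 0.32 in log2, with an interval that left out 0, 319 naive genes (11.8%) were higher and 230 (8.53%) lower in CD301bint than in CD301b- cells, whereas 89 (3.30%) were higher and 94 (3.49%) lower than in CD301b+ cells. The papain class had 206 genes (7.54%) above and 138 (5.05%) below CD301b-, and 24 (0.879%) above and 55 (2.01%) below CD301b+.

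The 6 genes with the highest CD301b+ levels relative to CD301b- in both libraries formed a stepped series. *Ehf*, an ETS family transcription factor of epithelia, was at 70.9, 163 and 232 CPM in naive and at 39.6, 92.2 (88.8 to 95.7) and 132 CPM in papain CD301b-, CD301bint and CD301b+ cells. The step from CD301b- to the class was 1.20 and 1.22 on the log2 scale, and the class lay at place 0.70 in both libraries. *Cxcl1*, a chemokine that attracts neutrophils, was at 227 CPM in the naive class, between 106 and 291, and at 414 CPM in the papain class, between 172 and 514. *Apol7c*, of the apolipoprotein L family, was the most abundant of the 6, at 1620 CPM (1596 to 1645) between 843 and 2338 in naive and at 2607 (2589 to 2626) between 1351 and 3516 in papain cells. *Nup62* of the nuclear pore, *Fxyd2*, a regulatory subunit of the sodium pump, and *Fgl2*, a secreted immunoregulatory protein, had places of 0.65 to 0.72. Over both libraries the places of the 6 genes ran from 0.64 to 0.80. With the CD301b- cells reweighted to the clusters of the class, the naive steps were smaller, at 0.40 for *Apol7c* (0.94 before), 0.26 for *Fxyd2* (0.80), 0.32 for *Nup62* (0.80), 0.55 for *Cxcl1*, 0.56 for *Fgl2* (0.82) and 1.03 for *Ehf*. The papain steps were then 0.43 to 0.59.

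The 6 genes lowest in CD301b+ cells had class levels past the midpoint towards CD301b+ cells in both libraries. *Grasp*, a scaffold protein of receptor trafficking, was at 143, 53.9 and 33.5 CPM in naive and 181, 75.3 and 43.6 CPM in papain CD301b-, CD301bint and CD301b+ cells, with CD301bint to CD301b- ratios of -1.41 (-1.55 to -1.26) and -1.27 (-1.35 to -1.19) in log2. *H2-DMb2* and *H2-DMa*, chains of the peptide exchanger that loads MHC class II, were at 57.2 and 139 CPM in the naive class and at 14.6 and 36.9 CPM in the papain class. For *H2-DMb2* the neighbours were at 125 and 39.2 CPM in naive and at 70.9 and 8.52 CPM in papain cells. *Tcf7*, the transcription factor TCF-1, was at 28.3 CPM in the naive class, which did not differ beyond counting error from the 25.3 of CD301b+ cells, and at 49.8 CPM in the papain class against 34.6. *Napsa*, an aspartic protease, and *Hist1h2ap*, a histone H2A gene, had places of 0.77 to 0.85. In the naive class 51.6% of the *Hist1h2ap* UMIs were in 10 cells. Several of the naive differences rested on naive cluster 1.5, described further on. Without its cells the naive log2 ratio of CD301bint to CD301b- cells was -0.09 instead of -1.01 for *Napsa*, -0.45 instead of -2.77 for *Hist1h2ap* and -0.29 instead of -0.86 for *H2-DMa*, so *Napsa* and *H2-DMa* no longer passed 0.32, whereas *Grasp* stayed at -1.13, *H2-DMb2* at -0.88 and *Tcf7* at -1.17. With cluster reweighting, the papain ratios of *Grasp* and *H2-DMb2* were -0.39 and -0.99.

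Among gene groups, each given by how many of its tested members passed this threshold, MHC class II presentation had 9 naive and 7 papain members below CD301b- cells. Some genes belong to more than 1 group. The counts of each group stand beside the shares over all genes tested. In naive cells these were 11.8% above and 8.53% below CD301b-, and 3.30% above and 3.49% below CD301b+ cells. In papain cells they were 7.54%, 5.05%, 0.879% and 2.01% in the same order. Of 15 naive MHC class II members tested, 1 was above CD301b- and 5 were above CD301b+ cells. Their median log2 ratio to CD301b- was -0.57, against 0.00 over all genes tested. Of 12 papain members tested, 3 were above CD301b+, with a median of -0.87 against 0.02. *H2-Ab1*, a chain of the I-A molecule, was at 3498, 1896 and 1585 CPM in naive and at 1516, 510 and 393 CPM in papain CD301b-, CD301bint and CD301b+ cells. Naive cluster 1.5, described further on, made up 21.7% of CD301b- and 9.71% of CD301bint cells. Outside it, naive *H2-Ab1* was at 1036, 818 and 973 CPM in the same order of classes. *H2-DMa*, at 69.1, 56.5 and 47.2 CPM, and *H2-DMb2*, at 39.2, 21.3 and 19.3 CPM, still fell in order. The naive group was not recounted without the cluster, so its part in these counts was not tested. *Cd74*, the invariant chain, was at 8268 CPM in the naive and 4542 CPM in the papain class, below the 10635 and 7324 of CD301b- cells. *Ciita*, the master regulator of these genes, was at 39.6 and 9.53 CPM against 78.4 and 34.1. *Ctss* and *Ifi30*, enzymes of antigen processing, differed from both neighbours by at most 0.23 in log2. The median MHC II antibody value was 5.43, 5.49 and 5.49 in naive and 5.20, 5.02 and 5.01 in papain CD301b-, CD301bint and CD301b+ cells. These are natural logarithms, include cells without expression values and come from cells sorted as MHCIIhi. Their steps therefore cannot be set against those of the mRNA.

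Costimulatory and coinhibitory ligands were split. Of 11 naive members, 3 were above (*Cd40*, *Icam1* and *Slamf1*) and 4 below CD301b- (*Cd80*, *Cd86*, *Cd200* and *Cd48*), and 3 were below CD301b+. Of 11 papain members, 4 were above and 2 below CD301b-, and 2 above CD301b+. *Cd200*, a ligand that restrains myeloid cells, was at 54.5 CPM in the naive class against 97.0 in CD301b-, and at 140 CPM in the papain class against 263. *Cd86*, the B7-2 ligand of CD28, was at 140 CPM in the naive class against 182, and at 267 in the papain class against 259, which was within the threshold.

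Within CD40 and NF-kB signalling, the members that passed in both libraries included *Cd40* itself, *Nfkbiz* and the feedback inhibitors *Nfkbia* and *Tnfaip3*. Of 27 naive genes, 5 were above and 2 below CD301b-, and 3 below CD301b+. Of 27 papain genes, 6 were above CD301b- and 2 below CD301b+. *Tnfaip3*, which encodes the A20 deubiquitinase, was at 553, 763 and 990 CPM in naive and 371, 580 and 719 CPM in papain CD301b-, CD301bint and CD301b+ cells. *Nfkbiz*, of the IkB family, was at 520 CPM in the naive class, between 373 and 681, and at 379 CPM in the papain class, between 218 and 481. The NF-kB subunits *Relb*, *Rel*, *Nfkb1* and *Nfkb2* differed from either neighbour by at most 0.23 in log2. The subunit *Rela* differed more in naive cells. It separated CD301b+ from CD301b- cells by 0.61 in log2, with the class 0.32 above CD301b- cells, at place 0.52.

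Few receptors and signals for IL-2, TSLP and IL-4 passed. Their naive counts against CD301b- cells were near the shares over all genes, 11.8% above and 8.53% below. Of 18 naive members, 2 were above and 1 below CD301b-, and 2 below CD301b+. Of 18 papain members, 3 were above and 1 below CD301b-. The members above CD301b- in papain cells were *Il13ra1* and the chemokine targets *Ccl17* and *Ccl22*. *Ccl17*, a ligand of CCR4, was at 804 CPM in the papain class, against 385 in CD301b- and 847 in CD301b+ cells. *Il2ra*, the IL-2 receptor alpha chain CD25, was at 62.3 CPM in the naive class, against 62.4 and 52.6, and at 132 CPM in the papain class, against 149 and 118. *Il2* itself did not pass the filter, at 3.77 CPM (2.68 to 5.16) and 4.39 CPM (3.66 to 5.21) in the class. An *Il2* UMI was found in 5.92% of naive CD301bint cells and in 5.19% of cDC1s, and 2.98% and 2.95% after thinning, so no difference was detectable at this depth.

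Cytokines and chemokines held both shared and discordant members. Of 8 naive cytokines, 1 was above (*Tnf*) and 2 below CD301b- (*Ltb* and *Tgfb1*), 2 were above and 4 below CD301b+. Of 4 papain cytokines, 1 was above CD301b- and 2 below CD301b+. *Csf1*, a growth factor for macrophages, was at 68.0 CPM in the papain class, between 27.4 and 89.0. *Il1b* was the lowest in the class in both libraries, at 561 CPM against 645 and 789 in naive and at 311 CPM against 341 and 454 in papain cells, and passed the threshold against CD301b+ in both. Of 15 naive chemokine and receptor genes, 5 were above and 5 below CD301b-, and 5 above and 3 below CD301b+. Of 11 papain genes, 5 were above and 1 below CD301b-, and 1 above and 1 below CD301b+. *Ccr7* was within the threshold throughout, at 3582 CPM in the naive class (3266 and 4053 in the neighbours) and at 3096 CPM in the papain class (3276 and 3270).

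Most motility and adhesion genes that passed were higher in the class than in CD301b- cells. Of 24 naive members, 12 were above and 3 below CD301b-, and 1 below CD301b+. Of 23 papain members, 7 were above and 4 below CD301b-. *Fscn1*, the actin bundler of mature dendritic cells, was at 1900 CPM in the naive class, between 1290 and 2167. *Vim*, the intermediate filament vimentin, was at 2619 and 4432 CPM in the class, above the 1962 and 3470 of CD301b- cells. *Coro1a*, an actin regulator, was at 216 and 289 CPM, below the 271 and 404 of CD301b- cells. Genes of cDC2s and migratory dendritic cells numbered 5 above and 2 below CD301b- and 1 below CD301b+ among 16 naive members. Among 14 papain members 2 were below CD301b-, *Klf4* and *Cd200*, and 1 was above and 1 below CD301b+.

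Of 25 naive transcription factors, 4 were above and 4 below CD301b-, and 4 below CD301b+. Of 26 papain factors, 3 were above (*Ehf*, *Irf1* and *Spic*) and 3 below CD301b- (*Klf4*, *Runx3* and *Spib*), and 2 were below CD301b+. *Irf1*, an interferon regulatory factor, was at 288 and 343 CPM in the class, against 181 and 256 in CD301b- and 394 and 413 in CD301b+ cells. *Runx3* was at 111 and 67.0 CPM, against 214 and 118 in CD301b- cells. *Irf4*, the lineage factor of cDC2s, was at 54.7 and 78.7 CPM and within the threshold of both neighbours. Immediate early and heat shock genes, which also respond to tissue digestion, numbered 3 above and 7 below CD301b- and 1 below CD301b+ among 24 naive members. Among 22 papain members 4 were above and 2 below CD301b-, and 4 below CD301b+.

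The smaller groups are given by their counts, beside the 11.8% above and 8.53% below CD301b- cells of all naive genes and the 7.54% and 5.05% of all papain genes. All 7 naive retinoid and regulatory enzymes tested passed against CD301b- cells. Of C-type lectins, 1 of 6 naive members was above (*Mgl2*) and 1 below CD301b- (*Cd209d*) with 2 above CD301b+, and 1 of 3 papain members was below CD301b-, *Clec7a*, which encodes the beta-glucan receptor Dectin-1. Interferon-stimulated genes gave 1 above and 2 below CD301b-, and 2 above and 2 below CD301b+ among 7 naive members, and 2 below CD301b- and 1 above CD301b+ among 9 papain members. Cell cycle genes gave 3 below CD301b-, 2 above and 1 below CD301b+ among 7 naive members. Among 7 papain members, 1 was above and 2 below CD301b-, and 1 above and 2 below CD301b+. *Mki67*, a mark of cycling cells, was at 83.9 CPM in the papain class, between 32.0 and 117. Of the same list, *Top2a*, *Cdk1*, *Birc5*, *Ccna2* and *Ccnb2* were at 0.204 to 5.75 CPM there, and *Pcna*, *H2afz* and *Tubb5* at 48.9 to 1539 CPM. Whether these cells cycled was not tested. Lipid and cholesterol genes gave 3 above and 1 below CD301b-, and 1 above and 2 below CD301b+ among 8 naive members, and 1 below CD301b-, 1 above and 2 below CD301b+ among 8 papain members. Retinoid and regulatory enzymes gave 2 above and 5 below CD301b-, and 2 above and 2 below CD301b+ among 7 naive members, and 1 below CD301b-, 1 above and 1 below CD301b+ among 4 papain members. *Aldh1a2*, which makes retinoic acid, was at 61.4 CPM in the naive class, 0.62 in log2 above CD301b- cells, and at 88.6 CPM in CD301b+ cells. *Fcer1g*, the single tested gene of Fc and innate receptors, was within the threshold in both libraries.

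Markers of other cell types were at low levels, except for macrophage and monocyte genes in the naive class, where *Lyz2* was at 672 CPM, and single genes such as *Tcf4*, *Irf8*, *Batf3* and *Cxcl16* that cDC2s share. Apart from the values without T cell UMIs and without naive cluster 1.5, their part in these results was not tested. T cell genes (10 listed) summed to 63.8 CPM in the naive class, against 106 in CD301b- and 20.8 in CD301b+ cells, and to 30.4 CPM in the papain class, against 23.0 and 14.1. The 8 B cell genes summed to 25.6 and 8.64 CPM, against 99.9 and 36.0 in CD301b- cells, with *Pax5* at 0 in the papain class. The 5 NK cell genes summed to 20.6 and 4.12 CPM, with *Ncr1* at 0 in the papain class. The 11 macrophage and monocyte genes summed to 967 and 50.7 CPM, the naive value lying between 982 and 736 and resting mostly on *Lyz2*, with *Fcgr1* at 0 in the naive class. Of these, 1 of 3 naive members was below CD301b- and 2 above CD301b+, and the 1 tested papain member, *Lyz2*, was below both. Plasmacytoid dendritic cell genes summed to 166 and 191 CPM, nearly all *Tcf4*, with *Siglech* at 0.484 and 0.0340 CPM. Of the 2 tested cDC1 genes, *Irf8* was above CD301b- and below CD301b+ in naive cells and *Batf3* was within the threshold in both libraries. Of 3 Langerhans cell genes, 2 were above CD301b- and 1 below CD301b+ in naive and 1 and 1 in papain cells, *Cd207* was at 0.194 and 0.136 CPM, and *Cdh1* was at 0. The 1 listed neutrophil gene, *Csf3r*, was at 0.194 and 0.0680 CPM, and the 1 listed gene of stroma, *Pecam1*, at 3.97 and 0.680 CPM.

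Few genes stood outside both neighbours. By the same threshold against each, 4 naive genes (0.148%) lay above both and 6 (0.223%) below both. In the papain library 0 genes (0%) lay above and 3 (0.110%) below, and 0 genes were outside in both libraries. The 4 naive genes above both were *Retnla*, *Ccl6*, *Tent5a* and *Snrnp25*. *Retnla*, which encodes the resistin-like protein RELMα, was at 178 CPM (170 to 186) against 52.6 and 43.8, with 94.3% of its UMIs in 10 cells and 1377 UMIs in 1 cell. *Ccl6*, a chemokine, was at 92.8 CPM against 38.1 and 47.4, with 73.2% of its UMIs in 10 cells. Without the 10 cells of each class richest in the gene, *Retnla* was at 10.3 CPM in the class against 10.2 in CD301b+ cells and no longer outside, whereas *Ccl6* stayed above both at 25.4 CPM against 13.5 and 19.8. *Tent5a*, a poly(A) polymerase, was at 63.6 CPM against 48.8 and 44.7, and *Snrnp25*, of the minor spliceosome, at 115 CPM against 91.6 and 74.7. Without naive cluster 1.5, 1 naive gene lay above both. Of the pair last named, *Tent5a* stayed above both without the 10 richest cells and *Snrnp25* did not.

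The naive genes below both were more evenly spread over cells. *Dnase1l3*, a secreted DNase, was at 160 CPM (152 to 167) against 286 and 274, a log2 ratio of -0.84 (-0.93 to -0.75) to CD301b- and of -0.78 (-0.87 to -0.69) to CD301b+ cells. In the papain library it was at 137 CPM against 141 and 239, so that the class was then at the CD301b- level. *Ptgs2*, the inducible cyclooxygenase, was at 234 CPM (225 to 244) against 303 and 341 in naive cells, and at 62.7 against 53.9 and 99.7 in papain cells. *Sema7a*, *Ggta1* and *Adgrg6* (the last named after its values were seen) were below both, with log2 ratios of -0.51 to -0.32. These 5 genes stayed below both without the 10 richest cells. *Mucl1*, the sixth, was at 28.1 CPM with UMIs in 16 cells, 97.9% of them in 10 cells, and did not stay. In the papain class, *Ccnd1*, which encodes cyclin D1, was at 78.4 CPM (75.2 to 81.7) against 107 and 102, and *Lst1*, a leukocyte membrane protein gene, at 51.9 CPM (49.4 to 54.6) against 77.1 and 67.5. Both stayed below without the 10 richest cells, whereas *Lyz2*, at 7.79 CPM against 79.4 and 13.7, did not.

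Within the class, the cells were split into 3 bins of equal number along the CD301b antibody value, with bins of the other classes beside them. By their medians, the genes that separated the outer classes changed most inside the CD301b- class, in naive cells with the limit of cluster 1.5 given below. In naive CD301b- cells, the highest bin was above the lowest in 189 of 200 upward genes and below it in 125 of 135 downward genes, with median log2 ratios of 0.56 and -0.67. In naive CD301bint cells this held for 127 of 201 and 61 of 135 genes, with medians of 0.05 and 0.03. In papain CD301bint cells it held for 122 of 129 and 66 of 76 genes, with medians of 0.18 and -0.16. In naive CD301b+ cells it held for 175 of 201 and 101 of 135 genes, with medians of 0.16 and -0.15. In papain CD301b+ cells it held for 113 of 129 and 53 of 76 genes, with medians of 0.18 and -0.08. By these medians the naive class was nearly level along the antibody, and the papain class was graded. The upward genes were graded in CD301b+ cells of both libraries as well. Reads typical of naive cluster 1.5, described further on, were not spread evenly over the naive bins. In naive CD301b- cells *Cd209a* was at 0.150 CPM outside that cluster, and at 77.1, 43.9 and 20.1 CPM over the 3 bins. *H2-Ab1* was at 4796, 3319 and 2280 CPM over the same bins. *Cd209a*, with 97.6% of its class UMIs in that cluster, was at 32.3, 35.8 and 66.5 CPM over the 3 naive CD301bint bins. The bins were not recomputed without that cluster, so its part in the naive values was not tested. Over the genes chosen in the other library, the median log2 distance from the lowest CD301b- bin was 0.62, 0.65 and 0.69 in the 3 naive CD301bint bins (174 genes) after 0.40 in the last CD301b- bin, and 0.42, 0.50 and 0.56 in the papain bins (259 genes) after 0.30.

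Single genes differed in this. *Cd40* was at 380, 346 and 358 CPM over the naive CD301bint bins and at 650, 706 and 749 CPM over the papain bins, a log2 ratio of highest to lowest bin of -0.09 (-0.20 to 0.03) and 0.21 (0.16 to 0.25). *Ehf* was at 123, 164 and 200 CPM in naive and 77.8, 80.6 and 118 CPM in papain bins, with ratios of 0.70 (0.52 to 0.88) and 0.60 (0.47 to 0.74). *Ehf* followed the antibody within the class in both libraries. *H2-DMb2* was at 42.0, 45.0 and 84.1 CPM in naive bins, so the bin nearest to CD301b+ held the most. Of its UMIs in the naive class, 68.0% were in cluster 1.5, whose part in this rise was not tested. In papain bins *H2-DMb2* was at 14.1, 17.1 and 12.6 CPM. *Tcf7* fell along the antibody in both, by 0.72 (interval -1.14 to -0.31) and by 0.46 (-0.65 to -0.27) in log2.

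**Figure D3:**
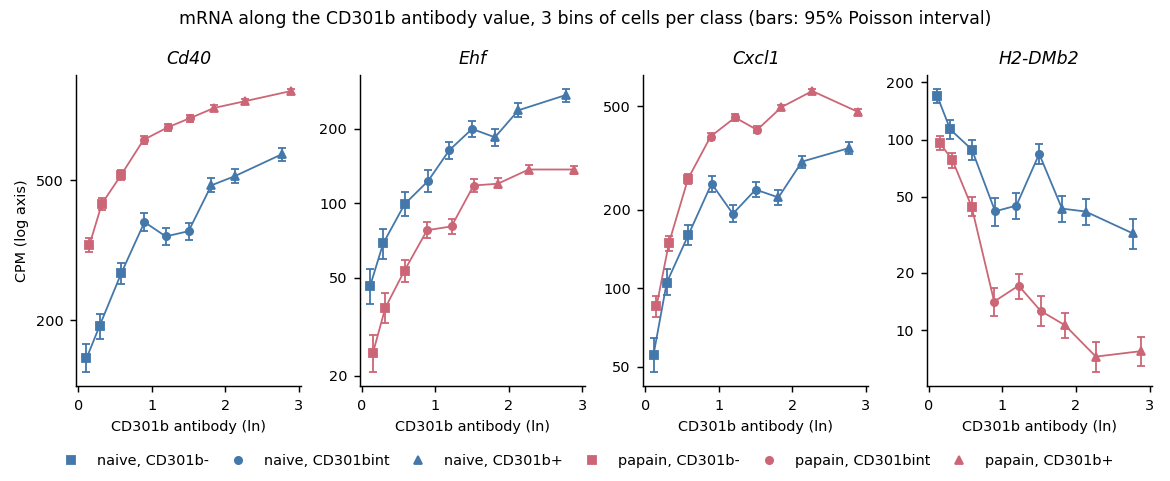
Each panel shows 1 gene, with the median CD301b antibody value of a bin (natural logarithm) on the horizontal axis and CPM with 95% Poisson intervals on a log vertical axis, for 3 bins of cells per class (squares CD301b-, circles CD301bint, triangles CD301b+; naive in blue, papain in red). *Cd40* is level at 346 to 380 CPM over the naive CD301bint bins while *Ehf* climbs from 123 to 200 CPM, and naive *H2-DMb2* peaks at 84.1 CPM in the last CD301bint bin.

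Single cells of the class covered a wide range. For each cell, the UMIs of the upward genes chosen in the other library were taken as a percentage of those of the upward and downward genes together. The medians were 36.6, 54.2 and 61.9 in naive and 41.6, 55.8 and 61.5 in papain CD301b-, CD301bint and CD301b+ cells. The SD over cells of the class was 14.3 and 11.6 percentage points, larger than the distance from the class median to the CD301b+ median. Of the CD301bint cells, 12.4% of naive and 12.3% of papain cells were below the CD301b- median, and 30.7% and 29.8% were above the CD301b+ median. By this share, the class thus overlapped broadly with both neighbours cell by cell. Abundant genes weigh most in a share of summed UMIs. In the naive class its downward genes included *Cd74* at 8268, *H2-Aa* at 3051, *H2-Eb1* at 2722 and *H2-Ab1* at 1896 CPM. Naive cluster 1.5, described further on, held 62.9% of the *H2-Ab1* UMIs. The SD also includes the counting error of single cells. The share was not recomputed without these genes or that cluster, so their part was not tested.

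The authors' own mRNA clusters of cDC2s, made in each library and numbered as deposited, showed the same mixture. CD301bint cells were found in all 7 naive and all 9 papain clusters, in shares that mostly lay between those of the neighbours. Cluster 1.1 held 27.3% (23.9 to 30.9) of the naive class, against 10.6% of CD301b- and 40.5% of CD301b+ cells, and cluster 2.1 held 24.7% (22.7 to 26.7) of the papain class, against 6.39% and 30.6%. *Mucl1* led both clusters by its ratio to other cDC2s. Clusters 1.4 and 2.4 were mainly CD301b-, with 9.86% and 5.15% of the class against 26.7% and 35.9% of CD301b- cells. Clusters 1.2, 2.2 and 2.5 held 21.9%, 19.4% and 8.54% of the class, above CD301b- and below CD301b+ cells, and clusters 2.6, 2.7 and 2.9 held 8.16%, 6.13% and 2.52%, below CD301b- and above CD301b+ cells. Clusters 1.6 and 2.8 held 2.88% and 5.36%. Cluster 1.7, led by *Il2rb*, *Ms4a4b* and *Gzma*, genes of cytotoxic lymphocytes named after their values were seen, held 12 cells (1.82%), and 0.478% of the class once cells with a T cell UMI were left out.

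In 1 cluster of each library the class was the richest of the 3. Cluster 1.3 held 26.6% (23.2 to 30.1) of naive CD301bint cells, against 21.7% (18.6 to 25.1) of CD301b- and 16.1% (13.5 to 19.0) of CD301b+ cells, so the intervals of the class and CD301b- overlapped. Cluster 2.3 held 20.1% (18.3 to 22.0) of papain CD301bint cells, against 11.4% (9.85 to 13.2) and 12.5% (11.4 to 13.8), and these intervals did not overlap. Their leading genes, named after their values were seen, were *Calm4* and *Myb* for cluster 1.3 and *Il12b*, *Tnfsf9* and *Socs3* for cluster 2.3. Median depth was 9893 UMIs in cluster 1.3 and 14231 in cluster 2.3.

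**Figure D4:**
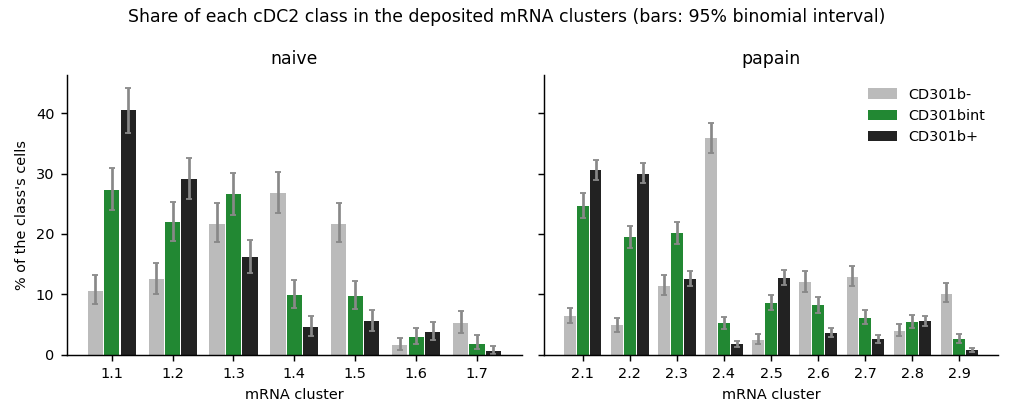
Bars give the percentage of the cells of CD301b- (grey), CD301bint (green) and CD301b+ (black) cDC2s in each of the authors' mRNA clusters (horizontal axis; naive on the left, papain on the right), with 95% binomial intervals. The green bar lies between the other bars in most clusters and is the tallest in clusters 1.3 (26.6%) and 2.3 (20.1%).

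Naive cluster 1.5 held 64 of the 659 CD301bint cells (9.71%) and 14.0% of their UMIs, but most of the class's reads of several cDC2 and macrophage genes. The cluster was singled out after its values were seen. It held 94.1% (91.9 to 95.8) of the class's *Mgl2* UMIs, 97.6% of *Cd209a*, 98.9% of *Clec10a*, both C-type lectins of dermal cDC2s, 96.9% of *Lyz2*, 93.1% of *Csf1r* and 62.9% of *H2-Ab1*. It held 4.51% of *Cd40*, 5.05% of *Ccr7* and 3.75% of *Fscn1*, less than its share of all UMIs. Within the cluster *Mgl2* did follow the antibody, at 54.3, 398 and 703 CPM in CD301b-, CD301bint and CD301b+ cells, as did *Cd209a* at 173, 314 and 403 CPM and *Lyz2* at 2185, 4660 and 6766 CPM. Outside it, *Mgl2* was at 0.299, 4.05 and 0.571 CPM. *H2-Ab1* was at 9981, 8527 and 8714 CPM in the cluster and at 1036, 818 and 973 CPM outside it, so the stepwise order of *H2-Ab1* over the 3 naive classes was not kept outside the cluster, which made up 21.7% of CD301b- and 5.52% of CD301b+ cells. *Cd40* kept its order outside the cluster, at 249, 400 and 560 CPM.

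Papain CD301bint cDC2s were higher than naive ones in some interferon-stimulated genes and lower in MHC class II and macrophage genes, and the MHC class II and macrophage values examined for it were much smaller, or no longer 2-fold, without the 64 cells of naive cluster 1.5. At 2-fold, with 2762 genes of at least 50 CPM in either library, 85 (3.08%) were higher and 106 (3.84%) lower in the papain class. The median log2 ratio over all of them was 0.11, and 0.12 and 0.11 in CD301b- and CD301b+ cells. The changes were largely shared with the neighbours, which came from the same libraries. Of the 85 higher genes, 84 had the same sign in CD301b- and 85 in CD301b+ cells, 61 and 59 also at 2-fold. Of the 106 lower genes, 105 and 106 had the same sign, 81 and 93 also at 2-fold.

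The 8 highest genes were *Isg15*, *Fabp4*, *Cd1d1*, *Slfn5*, *Gm12854*, *Zbp1*, *Ifi27l2a* and *Mucl1*. *Isg15*, a ubiquitin-like interferon product, was at 26.9 CPM in naive and 207 CPM in papain CD301bint cells, a log2 ratio of 2.94 (2.77 to 3.12), and its ratio was 2.53 in CD301b- and 2.22 in CD301b+ cells. *Fabp4*, a fatty acid carrier, was at 37.6 and 160 CPM, and *Cd1d1*, which presents lipid antigens, at 16.7 and 71.1 CPM. *Cd1d1* had a ratio of 2.09 (1.86 to 2.32) in the class, between 2.58 in CD301b- and 0.75 in CD301b+ cells. Interferon-stimulated genes gave 3 higher and 0 lower of 9, with a median of 0.79. Of the IL-2, TSLP and IL-4 group, 2 of 18 were higher, *Il2ra* at 1.09 (0.97 to 1.21) and *Ccl17* at 1.32 (1.27 to 1.37), with a group median of 0.10. *Cd40*, at 0.96 (0.91 to 1.01), missed the 2-fold threshold, and its ratio was 1.06 in CD301b- and 0.67 in CD301b+ cells.

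The 8 lowest genes were *Mmp12*, *Lyz1*, *Mgl2*, *Lyz2*, *Ccl4*, *Retnla*, *Plbd1* and *Cd53*. *Lyz2*, a lysozyme gene of myeloid cells, was at 672 CPM in naive and 7.79 CPM in papain CD301bint cells, a log2 ratio of -6.43 (-6.63 to -6.24), and *Mgl2* had a ratio of -6.96 (-7.84 to -6.20). All 3 tested macrophage genes were lower, with a median of -4.76. Without naive cluster 1.5 the ratios were -1.63 for *Lyz2*, -1.18 for *Plbd1* and -0.26 (-0.55 to 0.04) for *Wfdc17*, so *Wfdc17* was no longer called. Of 13 MHC class II genes 7 were lower and 0 higher, with a median of -1.10, and *H2-Ab1* was at 1896 and 510 CPM. Of 22 immediate early and heat shock genes 7 were lower and 0 higher (median -0.51), among them *Fos* at 779 and 281 CPM. Of 27 transcription factors 2 were higher and 3 lower (-0.19), and of 13 chemokine genes 1 and 3 (-0.21).

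The other groups are given by the members that were higher or lower and by their medians. Of 16 cDC2 and migratory genes 1 was higher and 3 lower (median -0.12), of 4 C-type lectins 0 and 2 (-1.55), and of 6 cytokines 0 and 2, *Tnf* and *Il12b* (-0.17). Of 11 costimulatory ligands 1 was higher, *Cd200* (0.35), of 27 CD40 and NF-kB genes 1 was higher and 1 lower (0.01), of 8 lipid genes 2 were higher, *Fabp4* and *Fabp5* (-0.01), and of 5 retinoid and regulatory enzymes 1 was higher and 2 lower (-0.65). Of 24 motility genes 0 were higher and 1 lower, *Itgax* (0.35). Cell cycle (6 genes, -0.01), Fc receptor (1, -0.28), cDC1 (2, 0.11), Langerhans cell (3, -0.06) and plasmacytoid dendritic cell genes (1, 0.24) had 0 changes, and T cell, B cell, NK cell, neutrophil and stroma genes had no member that passed the filter.

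Naive cluster 1.5 moved with this comparison. Without its 64 cells, the genes lower in the papain class numbered 58 instead of 106, of which 55 were among the 106, and the higher genes 73 instead of 85, with 66 shared. Of the 106 lower genes, 21 had over 50% of their naive UMIs in the cluster. The median share of naive UMIs in the cluster was 21.7% for the lower, 7.36% for the higher and 13.2% for all genes tested. Without the cluster, the log2 ratio of *H2-Ab1* was -0.68 instead of -1.89, that of *H2-DMb2* -0.54 instead of -1.97, that of *H2-DMa* -0.61 instead of -1.91 and that of *Mgl2* -3.09 instead of -6.96. None of these 3 MHC class II genes was then 2-fold lower. *Cd40* was at 0.81 instead of 0.96. Sums over cells do not by themselves separate fewer cells of a cluster from less RNA per cell. In the naive class an *Mgl2* UMI was found in 46 of the 64 cluster cells and in 14 of the 595 other cells. Which of the 2 lay behind the papain values was not tested.

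**Figure D5:**
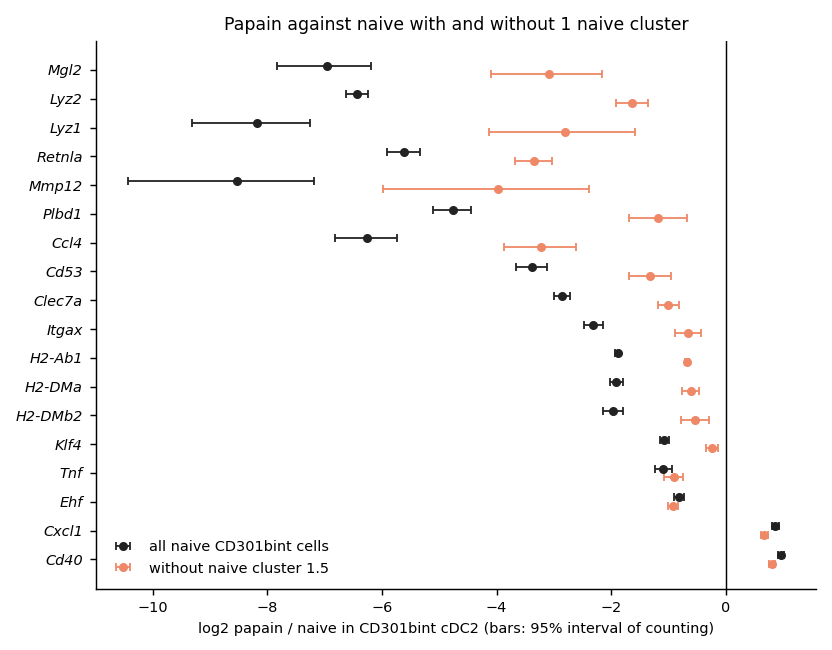
The log2 ratio of papain to naive CD301bint cDC2s (horizontal axis, with 95% counting intervals) is shown for 18 genes, with all naive cells of the class (black) and without naive cluster 1.5 (orange). *Mgl2* moves from -6.96 to -3.09 and *H2-Ab1* from -1.89 to -0.68, while *Cd40* stays above 0 at 0.96 and 0.81.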

How the data were processed

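Single-cell mRNA and surface antibody barcodes (CITEseq, 10x 3' kit) of 2 libraries, naive and OVA plus papain at day 1, were used. Per the methods and the submitters' processing notes, the authors aligned reads to mm10 with Cell Ranger 3.0.1 and normalized in Partek Flow. The deposited expression values were log2(CPM + 1) per cell. UMIs were recovered from them: all values of up to 50 UMIs came out whole within 0.02 UMIs (18049 genes). Deposited antibody values were natural log values of counts scaled to a geometric mean, for 12 antibodies, and the deposited antibody totals were counts. Deposited barcode sequences were copied. The authors' classes and cluster numbers were used as deposited.

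Libraries held 53095046 (naive) and 122133401 UMIs, with medians of 13764 and 14738 per cell, and the class 10335371 and 29393967 UMIs. UMIs were summed per class and divided by the summed cell totals (CPM, no pseudocount). Intervals were exact Poisson, conditional binomial (ratios) and Clopper-Pearson, at 95%. Genes needed 50 CPM in the highest group. Folds of 1.5 (CD301b+ against CD301b-), 1.25 (against neighbours) and 2 (papain against naive) counted, with an interval that left out 1. With 1 library per condition no test across samples was run. No doublet caller was run, and an alternative left out the deepest 5% of cells.

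The class and the gene lists were chosen with earlier results of these data known. Named genes were list members, the 6 highest and 6 lowest CD301b+ genes shared by both libraries (ranked by the smaller ratio), the 4 farthest outside each way per library, and the 8 highest and 8 lowest papain genes. Alternatives changed the gene filter, fold, scaling, pseudocount, averaging, class borders, cell filters and cluster weights, and 4 alternatives were chosen after seeing the data: without each gene's 10 richest cells, and, for 3 results, without naive cluster 1.5. Calculations used Python 3.11.15, numpy 2.4.6, scipy 1.17.1 and pandas 2.3.3, and were tested on simulated data. List genes without a value in the files were not analysed here.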

Additional observations from a re-analysis of the deposited data

Results flagged for a closer look

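Under the same contrast, a few genes moved in opposite directions in the class and a neighbour, or in the naive and papain libraries. Their intervals lay on either side of 0. These differences were not tested, since there was 1 library per condition. *Ccl6* was lower in papain than in naive CD301bint cells, with a log2 ratio of -1.01 (-1.13 to -0.89), but had a ratio of 0.20 (0.02 to 0.39) in CD301b- cells. Without the 10 cells richest in *Ccl6*, the naive class was at 25.4 CPM instead of 92.8. All papain cells of the class were at 46.0 CPM, so the fall in the class rested on few naive cells. The papain value was not recomputed in this way. *Mucl1* had a papain to naive ratio of 1.72 (1.54 to 1.90) in CD301bint and of -0.50 (-0.71 to -0.30) in CD301b- cells. Its ratio of CD301bint to CD301b- cells was -0.35 in naive and 1.87 in papain cells, from 28.1 against 35.8 CPM and 92.2 against 25.2 CPM. In the class, 10 cells held 97.9% of the naive and 47.0% of the papain *Mucl1* UMIs. *Stk17b*, a kinase gene named after its values were seen, had a ratio of CD301bint to CD301b- of -0.33 (-0.42 to -0.25) in naive and 0.34 (0.28 to 0.40) in papain cells, from 208 against 262 and 233 against 184 CPM.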

How the results depend on the processing

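Of 626 values recomputed under alternatives, 191 belonged to the main counts, medians and shares, of which 126 stayed within the set limits and 65 moved. Of the 435 for single genes, 296 stayed, 138 moved and 1 turned, the papain *Sirpa* ratio to CD301b- cells, at -0.12 with cluster reweighting. The numbers of genes separating CD301b+ from CD301b- cells (336 naive, 205 papain) were 673 and 380 with a filter of 20 CPM, 93 and 57 with 200 CPM, 2993 and 2490 with none, 113 and 67 with cluster reweighting and 77 and 56 at 2-fold, and 215 naive without cluster 1.5. The median place moved to 0.60 (no filter), 0.64 (reweighted) and 0.62 (without cluster 1.5) in naive, and to 0.73 (without the deepest 5% of cells), 0.58 (reweighted), 0.67 (genes of the other library) and 0.74 (2-fold) in papain cells. The share between was 98.9% (200 CPM), 87.4% (no filter), 93.8% (reweighted) and 86.3% (other library) in naive, and 83.8% (no filter) and 89.2% (other library) in papain cells. Genes above both neighbours in naive cells numbered 13, 0 and 82 with filters of 20, 200 and no CPM, 7 with classes recut as 3 equal groups by antibody, 25 at 1.1-fold, 2 at 1.5-fold, 2 without each gene's 10 richest cells and 1 without cluster 1.5. Those below both numbered 21, 2 and 73 with the same filters, 11 as a mean over cells, 2 with 10 CPM added, 3 reweighted, 35 at 1.1-fold and 1 at 1.5-fold. In papain cells, genes above both numbered 2 (20 CPM), 60 (no filter), 1 (mean over cells), 1 (recut classes) and 16 (1.1-fold), and below both 6, 0 and 73 with the filters, 1 recut, 1 reweighted, 28 at 1.1-fold and 1 at 1.5-fold. Genes higher in papain numbered 139, 30 and 522 with the filters, 56 with 10 CPM added, 402 at 1.5-fold and 11 at 3-fold, and lower ones 233, 32, 1625, 58 without cluster 1.5, 260 at 1.5-fold and 25 at 3-fold. Cluster 1.7 held 0.478% of the class without cells with a T cell UMI. Filters and folds change these counts by construction, and for the other settings the cause was not tested. No paired analysis was possible because each condition is 1 library. Genes under 50 CPM, such as *Il2*, were limited by depth, and no alternative stands in for a second library.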
